A study of Mus musculus with 6 samples.

Results

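Genes of neutrophils and of their granules were measured as RNA in 6 primary mouse osteosarcomas. The set holds 10 of the 39179 genes in the count table, chosen by symbol and not by their values. They are the primary granule genes Elane, Mpo and Prtn3, the secondary granule genes Ltf, Ngp and Camp, and the mature neutrophil genes S100a8, S100a9, Retnlg and Csf3r. Each of the 10 symbols matched 1 row of the table.

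The tumors came from 6 mice on a mixed C57BL/6 x 129/Sv x FVB background, and all 6 mice carried the mutant Nf2 allele as Nf2Δ2/+. Mice No244, No316 and No368 were CD44+/+ and mice No203, No279 and No364 were CD44-/-, so that each genotype had 3 tumors and the comparison addresses how loss of CD44, a cell surface receptor for hyaluronic acid, affects the tumor's RNA. No treatment and no age was given. The RNA was that of whole tissue, although the extraction text in the sample labels speaks of cell lines. In such bulk RNA, fewer cells of a type and less RNA per cell cannot be told apart. The genotype is that of the mouse, so an effect of Cd44 in the tumor cells and one in the blood cells cannot be told apart either. Cd44 itself lay at 137.3 to 243.6 CPM in the Cd44+/+ tumors and at 15.7 to 61.8 CPM in the Cd44-/- tumors.

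Neutrophils are made in the bone marrow, and a maturing cell fills its granules in a fixed order. Promyelocytes make the primary, or azurophil, granules with myeloperoxidase and serine proteases. Myelocytes and metamyelocytes then make the secondary, or specific, granules with lactoferrin and cathelicidin, and the granule mRNAs are largely gone from the mature cell that enters the blood. S100a8 and S100a9 mRNA is abundant in late and mature neutrophils, and the receptor for the growth factor G-CSF, encoded by Csf3r, stays on the mature cell.

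Total counts lay between 18076388 and 26954142 per tumor. Levels are given as normalized CPM, the counts per 1000000 counts of a library whose size was scaled with the TMM method of edgeR. Mitochondrial transcripts were 55.2% of all counts for No244 and 5.94% to 12.5% for the other tumors, which leaves No244 with the fewest counts of other genes. The Cd44+/+ libraries No316 and No368 differed by less than the sampling noise in 87.2% of 16671 genes, against 15.7% to 24.1% in the other 14 pairs of tumors, and in all 10 neutrophil genes. Their mean therefore stands for 1 sample wherever a mean ± SD is given, so that n = 2 for Cd44+/+. Liver genes stood out in the Cd44-/- tumor No364, where 12 hepatocyte genes summed to 135327 CPM against 50.3 to 170 CPM in the other tumors. Intervals are exact Poisson or Clopper-Pearson 95% intervals and cover counting error only.

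Because the granule genes are known targets of a few myeloid transcription factors, the 250 bases before the RefSeq start of each gene (GRCm38.p6) were searched on both strands for GAGGAAG, the purine-rich motif of the ETS factor PU.1, and for TTNCNNAA, a C/EBP motif, which do not overlap in any of these windows. All 10 genes had such a window. GAGGAAG was found in 5 of them (Elane, Mpo, Prtn3, S100a8 and Csf3r), against 10.6% of 32851 windows of the same length over all genes. TTNCNNAA was also found in 5 (Ltf, Ngp, S100a8, S100a9 and Retnlg), against 36.8% of all windows. Camp held neither. These matches describe letters and not binding. The windows of 3 pairs are shown 5′ to 3′ with the motif letters of either strand in capitals. Elane and Prtn3 are neighbours on chromosome 10 whose levels differed across the tumors, Ltf and Ngp lie near Camp on chromosome 9, and S100a8 and S100a9 encode the partners of 1 protein complex.
Elane (chr10:79886062-79886311, plus strand): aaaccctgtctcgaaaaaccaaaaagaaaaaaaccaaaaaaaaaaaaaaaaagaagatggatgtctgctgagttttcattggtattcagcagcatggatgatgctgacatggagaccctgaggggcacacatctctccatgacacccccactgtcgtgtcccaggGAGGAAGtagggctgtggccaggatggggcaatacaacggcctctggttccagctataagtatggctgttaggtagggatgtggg
Prtn3 (chr10:79879417-79879666, plus strand): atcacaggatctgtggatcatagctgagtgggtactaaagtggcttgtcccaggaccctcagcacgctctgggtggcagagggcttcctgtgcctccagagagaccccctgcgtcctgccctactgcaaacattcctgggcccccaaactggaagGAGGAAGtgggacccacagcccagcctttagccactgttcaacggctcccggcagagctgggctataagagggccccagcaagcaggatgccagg
Ltf (chr9:111019042-111019291, plus strand): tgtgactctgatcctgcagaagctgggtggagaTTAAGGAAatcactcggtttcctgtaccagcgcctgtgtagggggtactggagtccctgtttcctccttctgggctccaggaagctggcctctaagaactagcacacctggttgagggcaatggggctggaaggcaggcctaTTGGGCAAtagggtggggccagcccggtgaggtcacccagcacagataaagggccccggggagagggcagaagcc
Ngp (chr9:110419558-110419807, plus strand): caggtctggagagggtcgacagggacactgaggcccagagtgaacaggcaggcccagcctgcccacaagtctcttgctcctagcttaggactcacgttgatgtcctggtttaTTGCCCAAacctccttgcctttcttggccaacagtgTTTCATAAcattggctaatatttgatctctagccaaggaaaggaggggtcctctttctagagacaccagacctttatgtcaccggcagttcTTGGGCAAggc
S100a8 (chr3:90668821-90669070, plus strand): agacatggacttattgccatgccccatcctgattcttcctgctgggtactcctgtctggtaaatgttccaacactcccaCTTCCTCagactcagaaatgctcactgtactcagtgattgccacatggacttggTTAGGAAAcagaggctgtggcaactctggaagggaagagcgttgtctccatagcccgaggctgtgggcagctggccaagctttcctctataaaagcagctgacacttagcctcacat
S100a9 (chr3:90695722-90695971, minus strand): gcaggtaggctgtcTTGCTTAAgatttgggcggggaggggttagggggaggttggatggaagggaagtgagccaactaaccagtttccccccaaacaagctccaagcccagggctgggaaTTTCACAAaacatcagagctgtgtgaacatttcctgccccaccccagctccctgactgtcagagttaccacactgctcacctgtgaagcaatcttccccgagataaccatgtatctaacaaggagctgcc
In Elane and Prtn3 the purine-rich motif began 85 and 95 bases before the start. Ngp held 3 C/EBP matches, which began 138, 102 and 11 bases before the start, and Ltf held 2 of them. S100a8 was the sole gene of the 10 with both motifs.

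The 10 genes did not follow each other across the tumors. Ltf, Ngp, Camp and Elane were highest in the Cd44-/- tumor No203, while S100a8, S100a9 and Csf3r were highest in the Cd44-/- tumor No279, where Ltf and Ngp had 2 counts each and Camp and Elane had 0. Mpo was highest in the Cd44+/+ tumor No244, Prtn3 in the Cd44-/- tumor No364 and Retnlg in the Cd44+/+ tumor No316. The same tumor was highest for all 10 genes under the other 3 scalings tried. Counting error still spans the next tumor for Retnlg and Elane. No316 was 1.19-fold (0.889 to 1.61) above No368 in Retnlg, and No203 was 1.51-fold (0.529 to 5.27) above No244 in Elane. Of all 16839 genes tested, 14.2% were highest in No203, 21.5% in No279, 22.9% in No244, 25% in No364, 8.59% in No316 and 7.81% in No368.

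**Figure D1:**
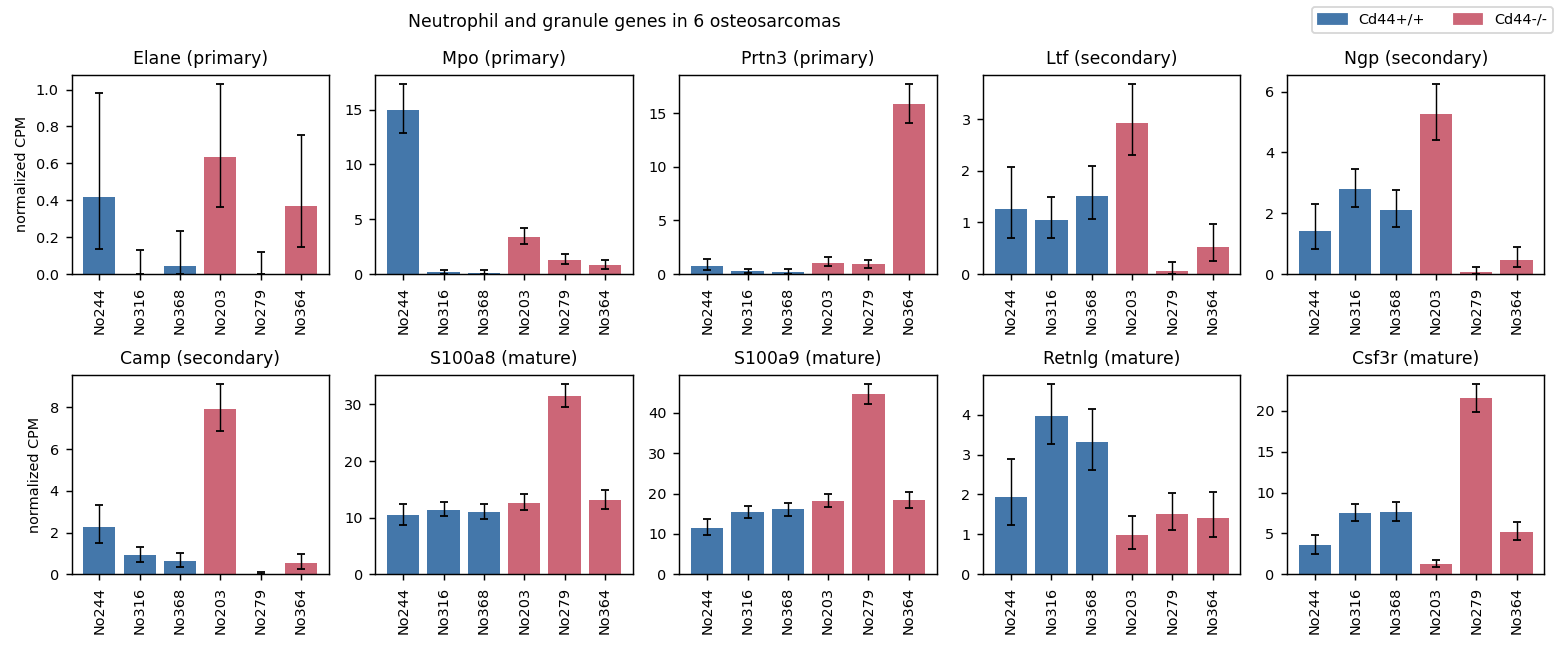
Normalized CPM of each of the 10 genes (vertical axis, linear and separate for each gene) in the 6 tumors (horizontal axis), blue for Cd44+/+ and red for Cd44-/-. Bars are single libraries and error bars are exact Poisson 95% intervals. Ltf, Ngp and Camp peak in No203, S100a8, S100a9 and Csf3r in No279, Mpo in No244 and Prtn3 in No364.

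Among the primary granule genes, Elane encodes neutrophil elastase, a serine protease (ENSMUSG00000020125, chr10:79886247-79888215, plus strand, in GENCODE M21 on GRCm38). It had 5, 0 and 1 counts in No244, No316 and No368, against 16, 0 and 7 in No203, No279 and No364. The level was 0.634 CPM (0.363 to 1.03) in No203, 0.420 CPM (0.136 to 0.980) in No244 and 0.366 CPM (0.147 to 0.755) in No364, with overlapping intervals. In No316 and No279 the 0 counts allow up to 0.104 and 0.0990 CPM, the level of 3 counts, so that No203 was at least 6.08-fold above No316. The genotypes overlapped, with a mean of 0.221 ± 0.282 CPM in Cd44+/+ (SD, n = 2) and 0.334 ± 0.318 CPM in Cd44-/- (SD, n = 3). Elane was the gene of the 10 that had too few counts for the test.

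Mpo encodes myeloperoxidase, which makes hypochlorous acid (ENSMUSG00000009350, chr11:87793581-87804413, plus strand). It had 178, 4 and 3 counts in No244, No316 and No368, or 15.0, 0.139 and 0.126 CPM. In No203, No279 and No364 it had 86, 40 and 15 counts, or 3.41, 1.32 and 0.785 CPM. No244 was 4.39-fold (3.37 to 5.74) above No203 and 119-fold (40.0 to 581) above No368, so the extremes of the range were both Cd44+/+ tumors. The mean was 7.54 ± 10.5 CPM in Cd44+/+ (SD, n = 2) and 1.84 ± 1.39 CPM in Cd44-/- (SD, n = 3). The balance of the primary granule genes varied, and Elane was 2.73% (0.893% to 6.26%) of the summed Elane and Mpo counts there, 15.7% (9.24% to 24.2%) in No203 and 31.8% (13.9% to 54.9%) in No364. The 8 osteoclast genes listed, which include Acp5 and Ctsk, summed to 9405, 9751 and 6295 CPM in No244, No203 and No279, the 3 tumors highest in Mpo, and to 645 to 726 CPM in the other 3. Their part in the Mpo levels was not tested. The antisense gene Gm11505 overlaps Mpo and had 0 to 3 counts.

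Prtn3 encodes proteinase 3, a close relative of elastase that lies next to Elane (ENSMUSG00000057729, chr10:79874476-79883174, plus strand). It had 9, 7 and 4 counts in No244, No316 and No368, or 0.756, 0.243 and 0.168 CPM. In No203 and No279 it had 27 counts each, or 1.07 and 0.891 CPM, and in No364 it had 303 counts, or 15.9 CPM (14.1 to 17.7). No364 was thus 14.8-fold (9.98 to 22.8) above the next tumor, No203. Each Cd44-/- tumor lay above each Cd44+/+ tumor, but the intervals of No203 (0.706 to 1.56 CPM), No279 (0.587 to 1.30 CPM) and No244 (0.346 to 1.44 CPM) overlapped. Elane was 2.26% (0.913% to 4.60%) of the summed Elane and Prtn3 counts in No364, against 37.2% (23.0% to 53.3%) in No203.

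Exons of Prtn3 overlap those of Plppr3 on the other strand, and the strand setting used in counting was not given in the sources used here. Plppr3 was at 9.68 CPM in No364 and at 32.8 CPM in No279, where Prtn3 was 0.891 CPM. The part of the overlap in the Prtn3 level was not tested. The annotated gene also begins 5191 bases before the RefSeq start, and counts per exon were not analysed here. The 5 Kupffer cell genes listed summed to 126 CPM in No364 and the hepatocyte genes to the 135327 CPM given above. Their part in the Prtn3 level was not tested.

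Of the secondary granule genes, Ltf encodes lactoferrin, an iron-binding protein (ENSMUSG00000032496, chr9:111019271-111042767, plus strand). It had 15, 30 and 36 counts in No244, No316 and No368, against 74, 2 and 10 counts in No203, No279 and No364. The corresponding levels were 1.26, 1.04 and 1.51 CPM, against 2.93, 0.0660 and 0.523 CPM. The Cd44+/+ tumors, at 1.04 to 1.51 CPM, lay between the high and the low Cd44-/- tumors. The mean was 1.27 ± 0.0117 CPM in Cd44+/+ (SD, n = 2) and 1.17 ± 1.54 CPM in Cd44-/- (SD, n = 3). The Cd44+/+ SD is this small because the mean of No316 and No368 fell near No244, and it understates the spread of the libraries.

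Ngp encodes neutrophilic granule protein, of the cystatin and cathelicidin families (ENSMUSG00000032484, chr9:110419747-110423012, plus strand). It had 17, 80 and 50 counts in No244, No316 and No368, or 1.43, 2.78 and 2.10 CPM. In No203, No279 and No364 it had 133, 2 and 9 counts, or 5.27, 0.0660 and 0.471 CPM. The ratio of No203 to No279 was 79.9 (21.7 to 666), and the Cd44+/+ tumors again lay between the Cd44-/- tumors.

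Camp encodes the antimicrobial peptide cathelicidin (ENSMUSG00000038357, chr9:109847379-109849617, minus strand). It had 27, 26 and 15 counts in No244, No316 and No368, or 2.27, 0.904 and 0.630 CPM. In No203, No279 and No364 it had 200, 0 and 10 counts, or 7.93, 0 and 0.523 CPM, which puts No203 at least 80.1-fold above No279, taken at 3 counts. The mean was 1.52 ± 1.06 CPM in Cd44+/+ (SD, n = 2) and 2.82 ± 4.44 CPM in Cd44-/- (SD, n = 3).

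Together Ltf, Ngp and Camp summed to 407 counts in No203 and to 4 counts in No279, a ratio in normalized level of 122 (47.4 to 451) within the Cd44-/- genotype. Their summed level was 4.96, 4.73 and 4.24 CPM in No244, No316 and No368, 16.1 CPM in No203, 0.132 CPM in No279 and 1.52 CPM in No364. Within the sum, the balance also varied. Camp was 49.1% (44.2% to 54.1%) of these counts in No203 and 45.8% (32.7% to 59.2%) in No244, but 19.1% (12.9% to 26.7%) in No316 and 14.9% (8.56% to 23.3%) in No368. Ngp led in the latter pair, with 58.8% (50.1% to 67.2%) and 49.5% (39.4% to 59.6%).

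Among the mature neutrophil genes, S100a8, S100a9 and Csf3r had the most counts of the 10 over all tumors together, with 2240, 3125 and 1224, while Retnlg had 314, fewer than Mpo (326) and Prtn3 (377). S100a8 encodes a calcium-binding protein that pairs with S100a9 to form calprotectin (ENSMUSG00000056054, chr3:90668978-90670035, plus strand). It had 124, 329 and 263 counts in No244, No316 and No368, or 10.4, 11.4 and 11.0 CPM, and 319, 954 and 251 counts in No203, No279 and No364, or 12.6, 31.5 and 13.1 CPM. Each Cd44-/- tumor lay above each Cd44+/+ tumor, yet the intervals of No316 (10.2 to 12.7 CPM), No203 (11.3 to 14.1 CPM) and No364 (11.6 to 14.9 CPM) overlapped.

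S100a9 encodes the partner protein (ENSMUSG00000056071, chr3:90692632-90695721, minus strand). It had 138, 443 and 383 counts in No244, No316 and No368, or 11.6, 15.4 and 16.1 CPM, and 459, 1352 and 350 counts in No203, No279 and No364, or 18.2, 44.6 and 18.3 CPM. No279 was 2.44-fold (2.17 to 2.75) above No364, while No203 and No364 did not differ beyond their intervals from each other or from No368. The mean was 13.7 ± 2.93 CPM in Cd44+/+ (SD, n = 2) and 27.1 ± 15.2 CPM in Cd44-/- (SD, n = 3). Per kilobase of exon, S100a9 had 22.2 to 85.5 CPM and S100a8 15.0 to 45.4 CPM over the 6 tumors, above each of the other 8 genes in each tumor.

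Unlike the granule genes, S100a8 and S100a9 kept a nearly fixed ratio. S100a8 was 47.3%, 42.6% and 40.7% of the summed S100a8 and S100a9 counts in No244, No316 and No368, against 41.0%, 41.4% and 41.8% in No203, No279 and No364. All 6 intervals overlapped, while the summed level ranged from 22.0 to 76.1 CPM. The share of Ltf, Ngp and Camp in their sum with S100a8 and S100a9 was 34.3% (31.6% to 37.1%) in No203 and 0.173% (0.0472% to 0.443%) in No279. It was 18.4%, 15.0% and 13.5% in No244, No316 and No368, against 4.60% (3.10% to 6.54%) in No364.

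**Figure D2:**
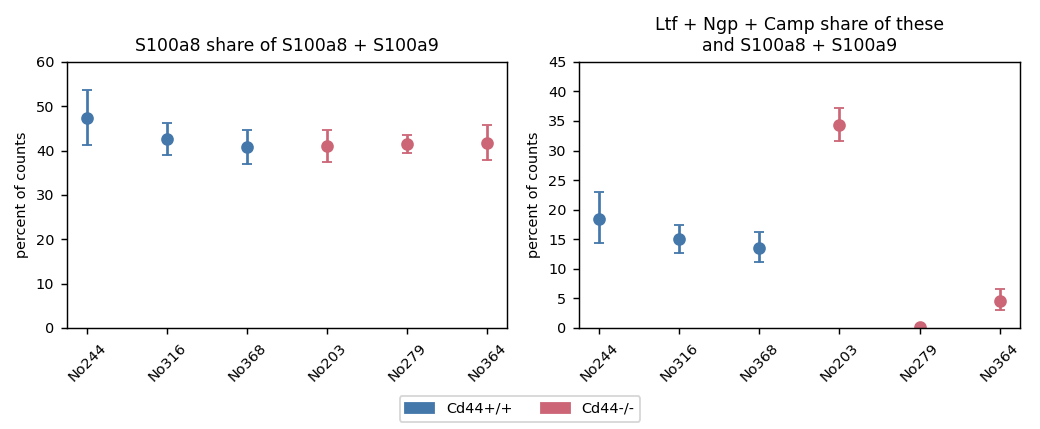
Left, S100a8 as a percent of the summed S100a8 and S100a9 counts in each tumor. Right, Ltf, Ngp and Camp as a percent of their sum with S100a8 and S100a9. Points are single libraries, blue for Cd44+/+ and red for Cd44-/-, and bars are Clopper-Pearson 95% intervals. The left share stays between 40.7% and 47.3%, while the right one runs from 0.173% in No279 to 34.3% in No203.

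Retnlg, a resistin-like secreted protein of neutrophils (ENSMUSG00000022651, chr16:48872621-48874496, plus strand), had 23, 114 and 79 counts in No244, No316 and No368, or 1.93, 3.96 and 3.32 CPM. In No203, No279 and No364 it had 25, 46 and 27 counts, or 0.991, 1.52 and 1.41 CPM. Each Cd44-/- tumor lay below each Cd44+/+ tumor, although the intervals of No244 (1.23 to 2.90 CPM), No279 (1.11 to 2.03 CPM) and No364 (0.931 to 2.06 CPM) overlapped. Retnlg did not share the peak of S100a8 and S100a9 in No279. It was 1.96% (1.44% to 2.60%) of its sum with these 2 genes there, 3.11% and 4.30% in No203 and No364, and 8.07% to 12.9% in the Cd44+/+ tumors.

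Csf3r (ENSMUSG00000028859, chr4:126024550-126044440, plus strand) had 42, 217 and 182 counts in No244, No316 and No368, or 3.53, 7.54 and 7.64 CPM. In No203, No279 and No364 it had 31, 652 and 100 counts, or 1.23, 21.5 and 5.23 CPM, so that the Cd44-/- tumors held both the highest and the lowest level, 17.5-fold (12.2 to 26.0) apart. Its share of the sum with S100a8 and S100a9 was 22.0% (20.6% to 23.6%) in No279, 21.9% in No316 and 22.0% in No368, 13.8% in No244 and 14.3% in No364. No203 stood apart with 3.83% (2.62% to 5.40%). The tumor highest in Ltf, Ngp and Camp was thus the lowest in Csf3r.

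Over all 10 genes the summed level was 48.6, 43.4 and 42.7 CPM in No244, No316 and No368, against 54.3, 102 and 56.6 CPM in No203, No279 and No364. The mean was 45.8 ± 3.90 CPM in Cd44+/+ (SD, n = 2) and 70.8 ± 26.6 CPM in Cd44-/- (SD, n = 3). The ratio of the Cd44-/- to the Cd44+/+ mean was 1.55, and 1.21 without No279. With Prtn3 left out of the sum, the ratio was 1.43 and No364 was the lowest tumor, at 40.8 CPM. The sum of all 10 genes mostly follows S100a8 and S100a9, which made up 45.3% to 75.0% of the counts. Mature genes took 97.7% of the counts of the 10 genes in No279, 88.2% and 89.3% in No316 and No368, and 56.6%, 60.9% and 67.3% in No244, No203 and No364. The rest was mainly secondary granule genes in No203 (29.7%) and mainly primary granule genes in No244 (33.2%, mostly Mpo) and No364 (30.0%, mostly Prtn3).

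**Figure D3:**
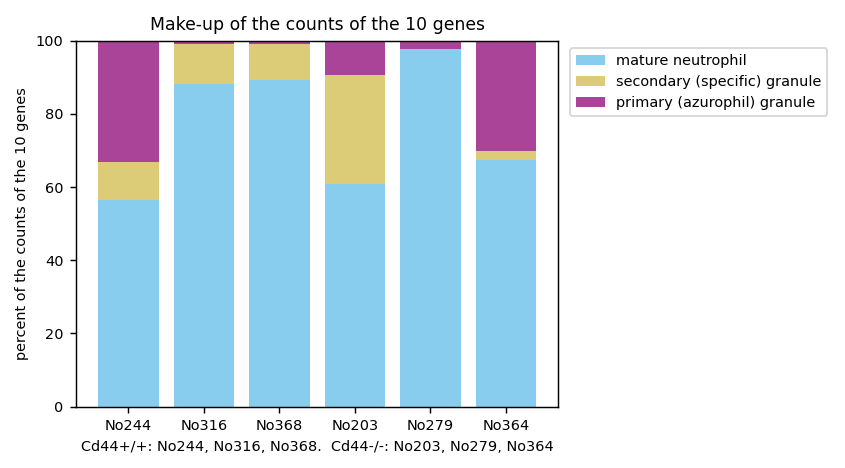
Counts of the 10 genes in each tumor (horizontal axis) split by class, as a percent of their sum (vertical axis). Blue stands for S100a8, S100a9, Retnlg and Csf3r, yellow for Ltf, Ngp and Camp, and purple for Elane, Mpo and Prtn3. Secondary granule genes are 29.7% in No203 and 0.130% in No279, and primary granule genes are 33.2% in No244 and 30.0% in No364.

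The genotypes were then compared gene by gene with edgeR's quasi-likelihood test across 16839 genes, of which 9 of the 10 neutrophil genes were part. It called 0 genes (percent called 0%) at a Benjamini-Hochberg adjusted p under 0.05, and 1810 (10.7%) had an unadjusted p under 0.05. Cd44 itself was thus not called either, with a log2 fold change of -2.68 (SE 0.65, edgeR adjusted p = 0.452). DESeq2's Wald test called 419 genes, or 2.33% of the 17952 that it gave an adjusted p, and 0 of the neutrophil genes, though it gave none to Mpo and Prtn3. Of the 9 genes, 1 (Prtn3) had an unadjusted p under 0.05 in edgeR. In DESeq2, which gave Prtn3 no p, it was another, Retnlg (DESeq2 unadjusted p = 0.0260, adjusted p = 0.261). The log2 fold change of Cd44-/- over Cd44+/+ was above 0 for 5 of the 9 and below 0 for 4, with a median of 0.58. Over all genes tested, 55.1% were above 0 and the median was 0.11.

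Prtn3 had a log2 fold change of 3.97 (SE 1.42, unadjusted p = 0.0278, edgeR adjusted p = 0.452). Without No364 it was 1.40. With No316 and No368 summed it was 3.66 (SE 1.75, edgeR unadjusted p = 0.0807), and 0 of the 9 genes then had an unadjusted p under 0.05. S100a8 had a log2 fold change of 0.80 (SE 0.48, edgeR adjusted p = 0.545) and S100a9 one of 0.91 (SE 0.47, edgeR adjusted p = 0.499), which became 0.23 and 0.35 without No279. Retnlg had -1.23 (SE 0.56, edgeR adjusted p = 0.471). None of these 4 genes passed the test, in spite of genotypes that did not overlap, as was the case for 19.1% of all genes tested, 9.49% with the Cd44-/- tumors above and 9.57% below. With library size alone as the scaling, the genotypes overlapped for S100a8, S100a9 and Retnlg, and with the library size without mitochondrial genes for S100a8 and S100a9.

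For the other 5 genes the spread within a genotype was larger than the difference. The log2 fold change was -1.45 for Mpo (SE 1.74, edgeR adjusted p = 0.759), 1.17 for Camp (SE 1.71, edgeR adjusted p = 0.807) and 0.58 for Csf3r (SE 0.98, edgeR adjusted p = 0.837). Ltf and Ngp had -0.11 (SE 1.16) and -0.12 (SE 1.32). Each of these 5 values changed its sign when 1 tumor was left out. Mpo was 3.74 without No244, Camp -2.31 without No203, Csf3r -0.96 without No279, and Ltf and Ngp 0.45 each without No279.

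**Figure D4:**
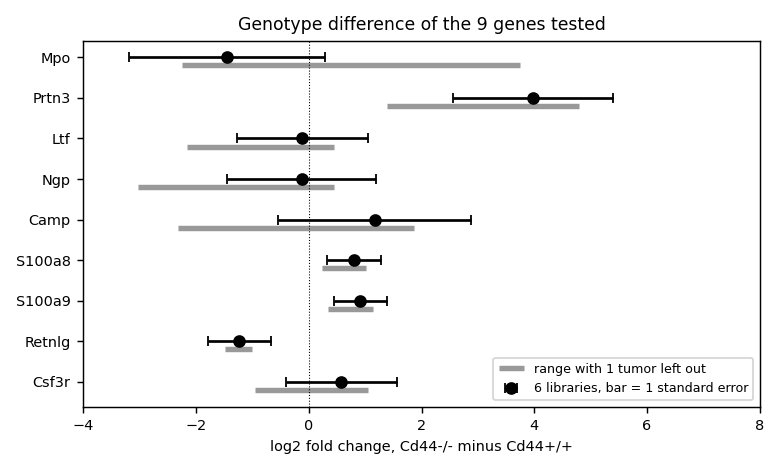
Log2 fold change of Cd44-/- over Cd44+/+ (horizontal axis) for the 9 genes tested (vertical axis). Points are the edgeR values over 6 libraries with bars of 1 standard error, and grey lines span the values with 1 tumor left out in turn. The grey lines of Mpo, Ltf, Ngp, Camp and Csf3r cross 0, while those of Prtn3, S100a8, S100a9 and Retnlg do not.

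Other genes of the same stages were taken from lists. Of 6 other primary granule and promyelocyte genes, 3 had too few counts for the test. These 3 were highest in No203, as was Elane and as were 14.2% of all genes tested. Such counts rank the tumors only loosely, with 9 or fewer for each of the 3 in No203. For Elane the ratio of No203 to No244 was 1.51 (0.529 to 5.27). Ctsg, the gene of cathepsin G, had 2, 0 and 1 counts in No244, No316 and No368, against 9, 0 and 2 in No203, No279 and No364. Ms4a3, a membrane protein of granulocyte progenitors, had 8 counts in No203, 1 in No244 and 0 in the others. Fcnb, the gene of ficolin B, had 5 counts in No203, 3 in No364, 1 in No279 and 0 in the Cd44+/+ tumors. Of the 3 tested, 0 passed at an adjusted p under 0.05 and 1, Serpinb1a, an inhibitor of neutrophil serine proteases, had an unadjusted p under 0.05 with a higher Cd44-/- mean, as did 6.44% of all genes tested. It lay at 9.16, 5.21 and 4.28 CPM in No244, No316 and No368, against 14.4, 10.7 and 15.9 CPM in No203, No279 and No364. None of the 3 tested was highest in No203. Prss57, with 2755 counts in total, lay at 18.6, 19.6 and 21.9 CPM in No244, No316 and No368, against 15.5, 27.5 and 11.6 CPM in No203, No279 and No364. Nkg7 was highest in No364 with 2.15 CPM, against 0.278 CPM in No203.

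Among 20 other genes of the secondary and tertiary granules, 13 were tested, 0 passed, and 5 had an unadjusted p under 0.05, all 5 with a higher Cd44-/- mean, against the same 6.44% of all genes. Many of these genes are not limited to neutrophils, and the 5 had their peaks in different tumors. Lcn2, Wfdc21 and Hp, of which the liver makes much Hp (haptoglobin), peaked in No364 with 491, 194 and 5418 CPM, against 3.49, 1.35 and 28.4 CPM in No203, the next highest for each of the 3. Slpi, an inhibitor of elastase, and Chil3, a chitinase-like protein, peaked in No279 with 209 and 11.2 CPM. Mmp9, a gelatinase that osteoclasts also make, was 3870, 2095 and 3628 CPM in No244, No203 and No279 and 115 to 250 CPM in the other 3. Mmp8, neutrophil collagenase, lay at 5.21, 1.56 and 1.64 CPM in No244, No316 and No368, against 2.70, 5.25 and 0.785 CPM in No203, No279 and No364. Unlike Ltf, Ngp and Camp, 0 of the 13 tested genes of this list were highest in No203, against 14.2% of all genes tested. In No279, 7 of the 13 were highest, against 21.5% of all genes tested.

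Genes of mature neutrophils had their peak mostly in No279, as S100a8, S100a9 and Csf3r did. Of 20 other such genes, 15 were highest in No279, and 11 of the 13 tested were, against 21.5% of all genes tested. Cxcr2, a receptor for neutrophil-attracting chemokines, had 1, 14 and 5 counts in No244, No316 and No368, 2 in No203, 29 in No364 and 210 in No279, or 6.93 CPM. Il1r2, a decoy receptor for interleukin 1, was 17.6 CPM in No279, 2.36 CPM in No364 and 0.278 to 1.38 CPM in the others. Clec4e and Trem1, receptors of the innate response, were 13.6 and 5.45 CPM in No279, and at most 2.41 and 1.55 CPM in the other tumors. None of the 13 passed the edgeR test at an adjusted p under 0.05.

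The defining surface marker Ly6g was at 0 to 2 counts in each tumor, that is 0 in No279. Several of these genes are also made by monocytes and macrophages, and the 14 monocyte and macrophage genes listed summed to 536, 1642 and 1640 CPM in No244, No316 and No368, against 760, 1283 and 640 CPM in No203, No279 and No364. All 14 were detected in each tumor, 6 of them were highest in No279, Csf1r with 360 CPM among them, and the other 8 in No316 or No368. Their part in the No279 values was not tested.

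Among genes that govern granulopoiesis or draw neutrophils, 13 of 19 were tested and 0 passed. Spi1, which encodes PU.1, was 31.0, 28.1 and 28.4 CPM in No244, No316 and No368, against 69.6, 109 and 15.8 CPM in No203, No279 and No364. Cebpe, the C/EBP factor of the secondary granule stage, had 0 counts in No203, where Ltf, Ngp and Camp were highest, and 66 counts in No364. Gfi1, a repressor needed for granulocytes, had 0 to 8 counts and was highest in No203. Csf3, the gene of G-CSF, had 2 counts in No203, 1 in No279 and 0 in the others.

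Of the ligands of Cxcr2, Cxcl5 had 3344 counts (110 CPM) in No279, 160 counts (8.37 CPM) in No364 and 0 in the other 4 tumors. Cxcl1 was 40.6 and 21.3 CPM in No279 and No364 and 0.487 to 0.756 CPM in the others (log2 fold change 5.10, SE 1.34, edgeR adjusted p = 0.452). No279 and No364 also had the 2 highest levels of Cxcr2. The ligands Cxcl2 and Cxcl3 were highest in No279 too, at 2.64 and 0.297 CPM, but in No364, at 0.890 and 0.105 CPM, they were no higher than in No316 (0.938 and 0.174 CPM) and No368 (1.05 and 0.168 CPM). Runx1 and Irf8, factors of early blood cells and of monocytes, had an unadjusted p under 0.05 with the lower level in Cd44-/- tumors, as did 4.31% of all genes tested. The levels were 4.97 to 33.6 CPM against 76.1 to 95.1 CPM for Runx1 and 8.88 to 14.2 CPM against 24.8 to 35.7 CPM for Irf8.

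As the 10 genes were picked as a sign of marrow, genes of other marrow lineages were set beside them. The 14 erythroid genes summed to 9633 CPM in No244, 3541 CPM in No364 and 272 to 721 CPM in the others, and in No244 and No364 nearly all of it was hemoglobin. Of genes of erythroid precursors, Klf1 was at 0.0695 to 1.05 CPM, while Alas2, an enzyme of heme synthesis, was 52.9 CPM in No244 and 57.0 CPM in No364 and 1.22 to 3.65 CPM in the others. The 15 B lineage genes summed to 116 CPM in No244, of which Ebf1, also made outside the B lineage, was 103 CPM, and to 16.3 to 53.1 CPM elsewhere. Of genes of early lymphoid cells, Rag2 had 0 counts in all 6 tumors and Rag1 had 0 or 1. Dntt had 239 counts (12.5 CPM) and Vpreb3 20 counts (1.05 CPM) in No364, against 0 to 3 and 0 to 2 counts elsewhere. The erythroid sum was thus highest in No244, whose Mpo was highest. The B lineage sum was highest there too, but was mostly Ebf1. Neither sum was highest in No203, whose Ltf, Ngp and Camp were. The remaining lists were megakaryocyte and platelet genes (16.3 to 144 CPM, highest in No244), eosinophil, basophil and mast cell genes (2.64 to 19.3 CPM, highest in No279), stem and progenitor genes (63.4 to 304 CPM, highest in No279), T and NK cell genes (2.19 to 13.1 CPM, highest in No364), endothelial genes (97.1 to 349 CPM, highest in No279) and osteoblast and osteocyte genes (809 to 36234 CPM, highest in No203). Kupffer cell genes were 11.0 CPM in No203 and 0.336 to 1.12 CPM in the tumors other than No203 and No364. The part of these cells in the levels of the 10 genes was not tested.

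**Figure D5:**
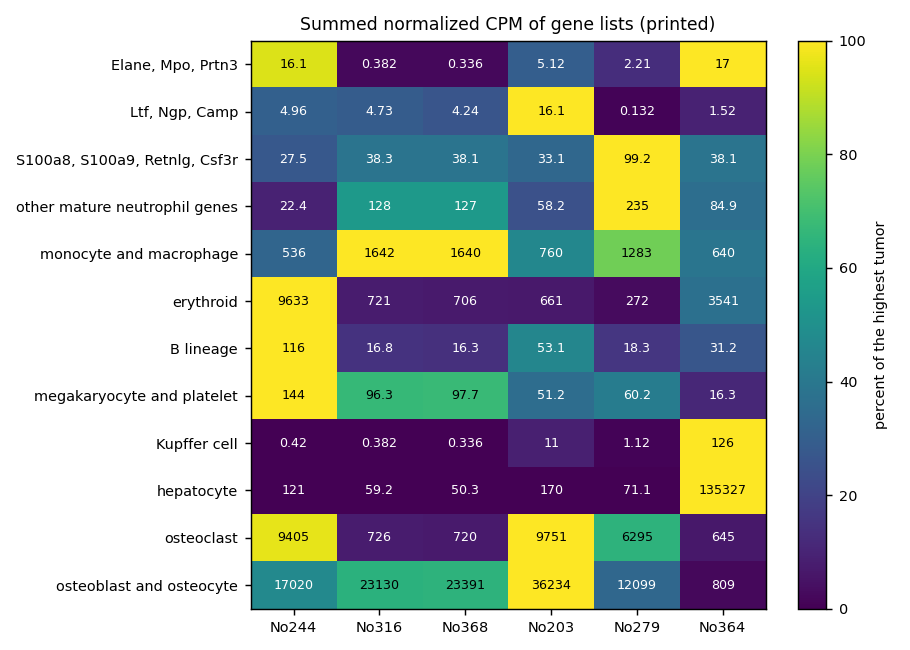
Summed normalized CPM of the 3 classes and of 9 other gene lists (rows) in the 6 tumors (columns, first 3 Cd44+/+), printed in each field and colored as a percent of the row's highest tumor. Ltf, Ngp and Camp peak in No203 at 16.1 CPM, S100a8, S100a9, Retnlg and Csf3r together with the other mature neutrophil genes in No279, and hepatocyte and Kupffer cell genes in No364.

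Among 18269 genes with at least 50 counts in total, those most like the mean scaled profile of the 10 genes over the 6 libraries were D730003I15Rik (Pearson's r = 0.996), Dph2, Timm10b, Rps18-ps3, Bik, Gm6436, Rbm12b1, Smim1, Lsm6, Znhit3, Snord50b and Gm12034 (r = 0.985 for the last). None of these is on the lists of neutrophil genes, and 241 genes had r over 0.9. The mean stands for few of the 10 genes, since their own r with it ran from 0.92 for Elane and 0.79 for Camp to -0.74 for Retnlg and -0.89 for Csf3r. The points share libraries, of which No316 and No368 are alike.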

How the data were processed

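RNA of 6 primary osteosarcomas was sequenced from stranded mRNA libraries. The authors aligned reads to GRCm38 with HISAT2 2.0.2 and counted them with featureCounts (Subread 2.0.0) per the labels, and deposited raw counts per Ensembl gene without normalization. The strand setting is not given in the sources used here. Gene symbols and positions were taken from GENCODE M21 (37607 of 39179 identifiers had a symbol), another release than that used for counting, and promoter windows from RefSeq. Genotypes came from the sample labels, which gave no other pairing or grouping of the tumors.

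Counts were normalized with TMM, and genotypes compared with edgeR 4.0.16 in R 4.3.3 (filterByExpr defaults, quasi-likelihood F test, Benjamini-Hochberg adjustment over all genes tested, threshold 0.05). The fit used the 6 libraries as deposited. Its p-values thus treat No316 and No368 as separate tumors, although they differed by less than the sampling noise in most genes. A count of 3 was the smallest taken as detectable, from 0.0990 to 0.252 CPM. The alternatives were DESeq2 size factors, library size alone or without the 37 mitochondrial genes, other filters (a total over 1, or 10 counts or more in each tumor), DESeq2 1.42.0 with its Wald test, voom of limma 3.58.1, No316 and No368 summed, and leaving out each tumor. Pairs of libraries were compared with binomial noise over genes with at least 20 counts. The fits were tested on simulated data.

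The genes, lists and tests were chosen with earlier results of these data known. Named genes are the 10 genes, members of the lists, genes that overlap them, and the 12 genes whose log2 CPM (prior count 2) was most like the mean of the 10. Examples within a list were chosen after their values were seen. Values of some listed genes are not reported here.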

Additional observations from a re-analysis of the deposited data

How the results depend on the processing

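None of the 10 genes was called in an alternative that tested it, but only 4 of them were tested with at least 10 counts in every tumor, and DESeq2 gave Mpo and Prtn3 no adjusted p. The number of genes called was 0 in each except DESeq2's Wald test (419), and 0 in each fit with 1 tumor left out. The ratio of the highest to the lowest summed level of the 10 genes was 2.38 with TMM. It was 4.57 with library size alone and 2.90 with library size without mitochondrial genes. No279 was highest in each, but the lowest tumor was No368, No244 and No364 in turn. Levels in single tumors also depended on the scaling. Under the other scalings, 50 values lay outside the counting interval of the TMM level and 130 within it. Mpo was 15.0 CPM in No244 and 3.41 CPM in No203 with TMM, but 8.44 and 3.79 CPM with library size alone. Among the 121 alternative log2 fold changes of the 9 genes, 12 had the opposite sign. With limma-voom, Mpo was 1.54, Camp -1.44 and Csf3r -0.19. With 1 tumor left out, the values ran from -2.25 to 3.74 for Mpo, from -2.31 to 1.87 for Camp, from -0.96 to 1.06 for Csf3r, from -2.16 to 0.45 for Ltf and from -3.02 to 0.45 for Ngp. Ltf was 0.03 without No368 and 0.24 without No364, and Ngp was 0.13 without No316 and 0.34 without No364. Prtn3 (1.40 to 4.79), S100a8 (0.23 to 1.02), S100a9 (0.35 to 1.14) and Retnlg (-1.53 to -1.02) kept their sign in all alternatives run. Genes with an unadjusted p under 0.05 numbered 1810 in the fit as reported, 1197 with library size alone, 761 with No316 and No368 summed, and from 763 (without No316) to 3085 (without No203) with 1 tumor left out. No paired analysis was possible because each tumor has its own mouse number and none is shared between genotypes. Depth limits Elane most, with 0 to 16 counts in a tumor.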
